A study of Homo sapiens with 6 samples.

Results

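MIR6723 and 6 MTRNR2L entries (MTRNR2L1, MTRNR2L2, MTRNR2L6, MTRNR2L8, MTRNR2L9 and MTRNR2L10) were examined, 7 of the 53826 gene entries listed for each library. They were chosen by their symbols from earlier results of these data, in which nuclear entries resembling mitochondrial genes had high values, so that the level values given here selected them and are a description. RNA-seq was carried out on A549, a human lung adenocarcinoma cell line, transduced with a retroviral pMXs vector and kept as stable lines. A549-TIPARP cells overexpressed TIPARP, an enzyme that attaches single ADP-ribose units to proteins and is induced by the aryl hydrocarbon receptor. A549-GFP cells carried GFP in the same vector and served as the control. Each line had 3 libraries, made with a stranded mRNA kit. The sample titles number them as experiments 1 to 3 in both lines, without saying whether an experiment was a separate culture, so the p-values measure the spread between these libraries, which may be technical. Values are TPM, the number of transcripts of an entry when read numbers are divided by entry length and a library is scaled to a sum of 1000000.

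Mitochondria carry a small circular genome that encodes subunits of the respiratory chain, transfer RNAs and the ribosomal RNAs RNR1 and RNR2 of the mitochondrial ribosome. Copies of this genome have been inserted into the nuclear chromosomes over evolution, and such stretches are called nuclear mitochondrial sequences. The MTRNR2L genes are nuclear copies of parts of RNR2 named for humanin, a short peptide whose reading frame lies inside RNR2 and which is known for protecting cells against apoptosis. MicroRNAs are short RNAs that pair with messenger RNAs through a seed near their 5′ end, and MIR6723 is listed as a microRNA gene.

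The longest reading frame starting with ATG in RNR2 has 24 codons and lies at chrM:2633-2707, at base 963 of the 1559 bases of RNR2. Its sequence is shown with the same stretch at the 6 MTRNR2L members and at MTRNR2L12, which was not a member, because it is the frame for which the MTRNR2L genes are named and the entries differ in how far they keep it. Sequences are from the genome build hg38, with places from RefSeq. They are written 5′ to 3′ on the strand that reads as RNR2, and capitals mark bases that differ from RNR2.
RNR2, chrM:2633-2707, plus strand: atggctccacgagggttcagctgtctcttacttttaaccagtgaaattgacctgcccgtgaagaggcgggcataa
MTRNR2L8, chr11:10508152-10508226, minus strand: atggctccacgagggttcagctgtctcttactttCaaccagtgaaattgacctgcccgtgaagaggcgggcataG
MTRNR2L1, chr17:22524062-22524136, plus strand: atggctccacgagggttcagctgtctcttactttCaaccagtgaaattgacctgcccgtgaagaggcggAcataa
MTRNR2L12, chr3:96617199-96617273, minus strand: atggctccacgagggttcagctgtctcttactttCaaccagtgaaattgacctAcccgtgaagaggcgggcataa
MTRNR2L9, chr6:61574328-61574402, plus strand: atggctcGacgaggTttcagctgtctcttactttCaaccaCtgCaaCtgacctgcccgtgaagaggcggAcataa
MTRNR2L6, chr7:142667231-142667305, plus strand: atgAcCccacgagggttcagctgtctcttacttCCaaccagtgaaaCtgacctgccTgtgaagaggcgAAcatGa
MTRNR2L10, chrX:55181920-55181994, minus strand: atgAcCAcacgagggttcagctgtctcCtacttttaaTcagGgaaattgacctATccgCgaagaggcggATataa
MTRNR2L2, chr5:80650012-80650086, minus strand: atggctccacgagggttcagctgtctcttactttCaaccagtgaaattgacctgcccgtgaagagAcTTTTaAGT
MTRNR2L8, MTRNR2L1 and MTRNR2L12 each differed from RNR2 at 2 of the 75 bases. MTRNR2L9 differed at 7, MTRNR2L6 at 9 and MTRNR2L10 at 11 bases, and all of these kept a frame of 24 codons. The stretch next to MTRNR2L2 differed at 9 bases, most of them at its 3′ end, where the frame had no stop. That stretch lay outside the interval RefSeq gives for MTRNR2L2. Among the MTRNR2L loci not shown, MTRNR2L3, MTRNR2L5, MTRNR2L7, MTRNR2L11 and MTRNR2L13 also kept a frame of 24 codons, and MTRNR2L4 did not.

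Every MTRNR2L member matched RNR2 over nearly its whole locus. MTRNR2L2 (chr5:80650420-80651030, minus strand, 611 bases) had the highest identity among the members, at 95.3%. MTRNR2L8 (chr11:10507887-10509176, minus strand, 1290 bases) had 93.0%. MTRNR2L9 (chr6:61574103-61574550, plus strand) had 92.1% over 441 of its 448 bases. MTRNR2L1 (chr17:22523415-22524663, plus strand) had 88.4%, MTRNR2L6 (chr7:142667017-142667685, plus strand) 87.5% and MTRNR2L10 (chrX:55181392-55182442, minus strand) 81.5%. A stricter measure was the share of 50-base windows of a locus that occur letter for letter in mitochondrial DNA. That share was 9.43% for MTRNR2L2, 9.02% for MTRNR2L8 and 7.02% for MTRNR2L9, against 0.917% for MTRNR2L1, 0.968% for MTRNR2L6 and 1.30% for MTRNR2L10. The loci also shared windows with each other. Of the 562 windows of MTRNR2L2, 243 occurred at another MTRNR2L locus, 147 of them at MTRNR2L8, while MTRNR2L6 shared 7 of 620. How reads that match several places were counted is not given in the sources used here, so reads of these loci, of each other and of mitochondrial RNR2 cannot be told apart in the deposited values. No sequence of MIR6723 was used here.

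MIR6723 had the highest value of all entries in 6 of 6 libraries. Its share of TPM was 7.92%, 5.51% and 7.74% in A549-GFP replicates 1, 2 and 3, and 7.20%, 5.94% and 9.76% in A549-TIPARP replicates 1, 2 and 3. These are shares of TPM, which divides by entry length, and not shares of reads or of RNA mass. The length of MIR6723 was not used here, so neither was computed, and ratios of MIR6723 to other entries are on this scale too. The lines overlapped, the lowest value being in A549-GFP replicate 2 and the highest in A549-TIPARP replicate 3. The next entry in every library was FTL, the light chain of the iron store ferritin. MIR6723 stood 3.41, 4.41 and 3.24 times above FTL in the A549-GFP libraries and 3.21, 2.59 and 5.97 times above it in the A549-TIPARP libraries. Averaged over the 6 libraries, MIR6723 reached 73447 TPM, FTL 20219 and MTRNR2L2 12062. They were followed by the keratin KRT18 with 9378, the ferritin heavy chain FTH1 with 9223, the actin-binding peptide TMSB10 with 8831 and the ribosomal protein RPLP1 with 8456 TPM. MIR4461, another entry listed as a microRNA, came next with 7844, then KRT8 with 7821 and the ribosomal protein RPS2 with 7009 TPM. The other microRNA entries summed to between 0.644% and 1.14% of TPM per library, so that MIR6723 exceeded all of them taken as a sum in every library. MIR4461 alone made up most of that sum, at 6010 to 11066 TPM, and 1703 of the 1868 other microRNA entries were at the floor in all libraries.

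**Figure D1:**
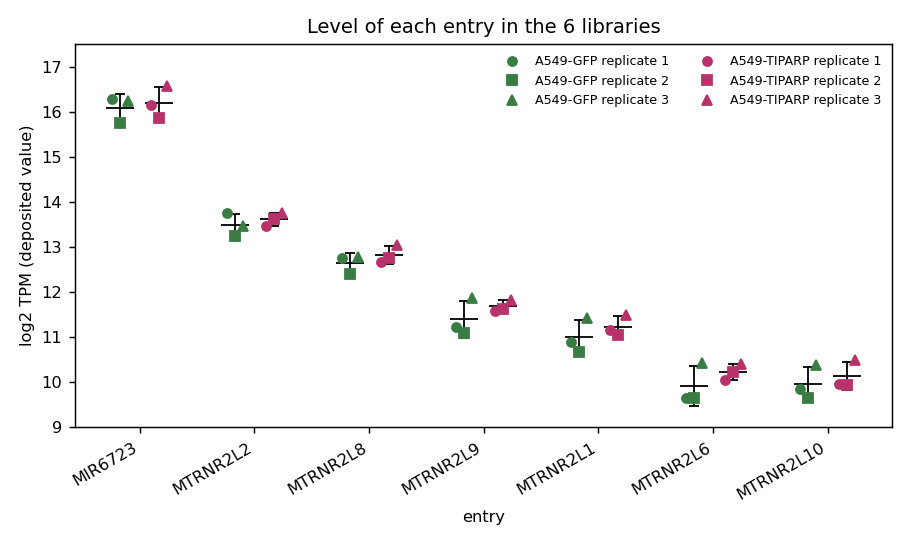
Deposited log2 TPM (vertical axis) of the 7 entries (horizontal axis) in each library, with A549-GFP in green and A549-TIPARP in magenta, marker shapes for replicates, and black bars for the mean and SD of 3 libraries. MIR6723 lies near 16 in both lines and the libraries of the lines overlap for all 7 entries.

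MTRNR2L2 was the most abundant of the humanin-like entries and stood at rank 3 or 4 in each library. Its levels were 13706, 9686 and 11257 TPM in A549-GFP and 11256, 12621 and 13849 TPM in A549-TIPARP. A549-GFP replicate 1 came close to the highest value, in A549-TIPARP replicate 3. MTRNR2L8, whose locus covers the early and middle part of RNR2, had 6964, 5393 and 7074 TPM in A549-GFP and 6520, 6887 and 8411 TPM in A549-TIPARP. Its low value was again in A549-GFP replicate 2 and its high value in A549-TIPARP replicate 3.

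MTRNR2L9, the shortest of the 6 loci, had 2403, 2174 and 3725 TPM in A549-GFP and 3067, 3163 and 3648 TPM in A549-TIPARP. For this entry the highest library was A549-GFP replicate 3. MTRNR2L1, whose frame differs from RNR2 at 2 bases, had 1897, 1638 and 2763 TPM in A549-GFP and 2287, 2108 and 2877 TPM in A549-TIPARP. Replicate 3 was the highest library of each line.

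MTRNR2L6 and MTRNR2L10 were the lowest of the 7. MTRNR2L6 had 804, 809 and 1371 TPM in A549-GFP and 1063, 1203 and 1353 TPM in A549-TIPARP. Its A549-GFP libraries spanned the A549-TIPARP libraries on both sides. MTRNR2L10 had 924, 799 and 1326 TPM in A549-GFP and 1005, 987 and 1450 TPM in A549-TIPARP, with replicate 3 again the highest of each line.

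The order of the levels was MIR6723, MTRNR2L2, MTRNR2L8, MTRNR2L9, MTRNR2L1, MTRNR2L6 and MTRNR2L10. On the log2 scale the mean steps down were 2.59 ± 0.22, 0.81 ± 0.11, 1.20 ± 0.21, 0.42 ± 0.09, 1.05 ± 0.14 and 0.02 ± 0.17 (SD, n = 6 libraries). The order held in 6 of 6 libraries for the first 5 steps, whereas MTRNR2L6 exceeded MTRNR2L10 in 4 of 6. These last 2 entries therefore did not differ in level beyond their spread. A549-GFP replicate 2 was the lowest library for 6 of the 7 entries, MTRNR2L6 being lowest in A549-GFP replicate 1. A549-TIPARP replicate 3 was the highest for 5, and A549-GFP replicate 3 for MTRNR2L6 and MTRNR2L9.

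**Figure D2:**
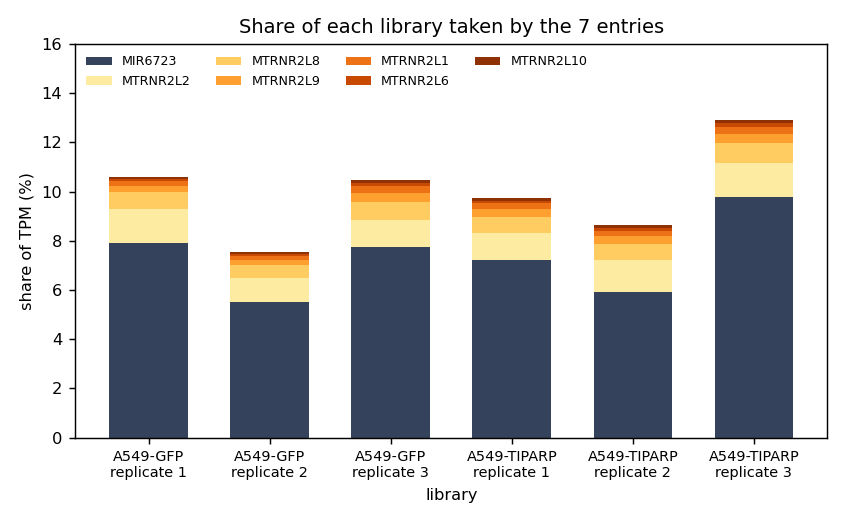
Share of TPM in percent (vertical axis) taken by the 7 entries in each library (horizontal axis), stacked by entry. The stacks reach from 7.56% in A549-GFP replicate 2 to 12.9% in A549-TIPARP replicate 3, and MIR6723 is the largest segment of each.

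The 7 entries summed to 10.6%, 7.56% and 10.5% of TPM in the A549-GFP libraries and to 9.72%, 8.64% and 12.9% in the A549-TIPARP libraries. The mean sum was 9.55% ± 1.72 in A549-GFP and 10.4% ± 2.23 in A549-TIPARP (SD, n = 3 each), a difference smaller than either SD. MIR6723 made up 73.8% ± 0.959 of the sum in A549-GFP and 72.8% ± 3.57 in A549-TIPARP. The 6 MTRNR2L members alone summed to 2.49% ± 0.384 and 2.79% ± 0.330. Since TPM is a share of a fixed total, the remaining entries were recomputed without the 7. This raised the log2 level of every other entry by 0.15 ± 0.03 in A549-GFP and 0.16 ± 0.04 in A549-TIPARP, a difference between the lines of 0.01. Entries past 2-fold between the lines went from 202 higher and 57 lower in A549-TIPARP to 210 higher and 50 lower.

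Whether the entries differed between the lines was tested with limma on log2(TPM + 1) over the 13181 entries with TPM above 2 in at least 1 library, and all 7 passed this filter. None of the 7 had an adjusted p under 0.05 (0.994 for each, limma with Benjamini-Hochberg adjustment), none had an unadjusted p under 0.05, and none was past 2-fold. Over all entries 0.0152% had an adjusted p under 0.05, 3.85% an unadjusted p under 0.05 and 1.96% a change past 2-fold. The libraries of the lines overlapped for all 7 entries, while they did not overlap for 8.91% of all entries. MIR6723 had a mean share of 7.06% ± 1.34 in A549-GFP and 7.63% ± 1.95 in A549-TIPARP. The exact permutation test of this share, two-sided, gave p = 0.8, where the smallest p that 3 against 3 libraries can give is 0.1. On the log2 scale MIR6723 was 0.10 higher in A549-TIPARP (SE 0.23, 95% interval -0.43 to 0.63).

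All 7 means were higher in A549-TIPARP, with 95% intervals that included 0. MTRNR2L6 had the largest log2 difference, 0.32 (SE 0.23, 95% interval -0.21 to 0.84), and MTRNR2L9 followed with 0.29 (SE 0.22, -0.21 to 0.78). MTRNR2L1 differed by 0.23 (SE 0.22), MTRNR2L10 by 0.19 (SE 0.23), MTRNR2L8 by 0.17 (SE 0.18) and MTRNR2L2 by 0.13 (SE 0.18). The median log2 difference of the 7 entries was 0.19, beside -0.06 over all 13181 entries. It rested on single libraries. Without A549-GFP replicate 2 it was 0.043 beside 0.042 over all entries, and without A549-TIPARP replicate 3 it was 0.060 beside -0.036. Without A549-GFP replicate 3 it was 0.39 and without A549-TIPARP replicate 2 it was 0.28, beside -0.16 and -0.085 over all entries. The 7 differences come from the same 6 libraries and the same libraries were lowest and highest for most entries, so that their directions are not separate observations. Single libraries set the sign for MIR6723, whose log2 difference was -0.067 without A549-GFP replicate 2 and -0.090 without A549-TIPARP replicate 3. A549-GFP replicate 2 also stood farthest from the mean of its line over all entries, with a root mean square deviation of 0.536 on the log2 scale against 0.152 to 0.341 in the other libraries. In that library FTL, KRT18 and KRT8 were at their lowest too, at 12496, 4176 and 3855 TPM. Other epithelial and A549 markers went the other way there. KRT7, CDH1 and AKR1C1 were at their highest, at 2433, 142 and 3334 TPM. The part of this library's state in the low MIR6723 value was not tested.

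**Figure D3:**
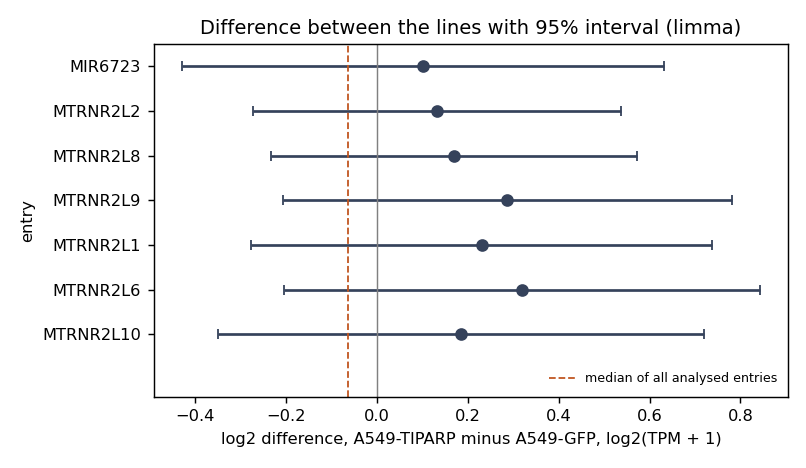
Log2 difference of each entry, A549-TIPARP minus A549-GFP, with its 95% interval from limma (horizontal axis) and entries in order of level (vertical axis); the dashed line is the median of all analysed entries. The estimates lie between 0.10 and 0.32 and every interval includes 0.

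The profiles of the MTRNR2L members over the 6 libraries formed 2 groups, MTRNR2L2 with MTRNR2L8 and the other 4 entries with each other, a grouping made after the values were seen and not tested. In the first pair the match begins near the start of RNR2. The match of MTRNR2L8 runs from base 13 to base 1302 of RNR2 and that of MTRNR2L2 from base 18 to base 628. The other matches begin at various later bases, for MTRNR2L1 (from 317) and MTRNR2L10 (from 508) running through the end of RNR2 and a few bases past it, for MTRNR2L9 (738 to 1178) and MTRNR2L6 (748 to 1415) ending within it. For the values below, entries were split by whether their match begins near the start of RNR2. The groups are not separate parts of RNR2. The match of MTRNR2L8 contains that of MTRNR2L9 and overlaps those of the other later entries. MTRNR2L1 also starts nearer to the first pair than to MTRNR2L9. For the 7 pairs of entries within a group the SD of the log2 ratio over 6 libraries was between 0.07 and 0.17. For the 8 pairs across the groups it was between 0.18 and 0.35. MTRNR2L1 kept 1.98 to 2.28 times the level of MTRNR2L10 and MTRNR2L9 kept 2.63 to 2.99 times that of MTRNR2L6, whereas MTRNR2L2 was between 8.21 and 17.1 times MTRNR2L6. The contrast was clearest in A549-GFP replicate 1, where the early-starting pair averaged 0.11 above and the later 4 entries averaged 0.29 below their means over the 6 libraries on the log2 scale. In A549-GFP replicate 3 the early pair was at -0.02 and the later 4 at 0.33. MTRNR2L3, which is no member and matches RNR2 from base 963 on, had SDs of 0.11 to 0.22 against the later entries and of 0.27 to 0.37 against the early pair. MIR6723 had SDs of 0.16 to 0.22 against the early pair and of 0.20 to 0.34 against the later entries. All of these ratios come from the same 6 libraries.

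**Figure D4:**
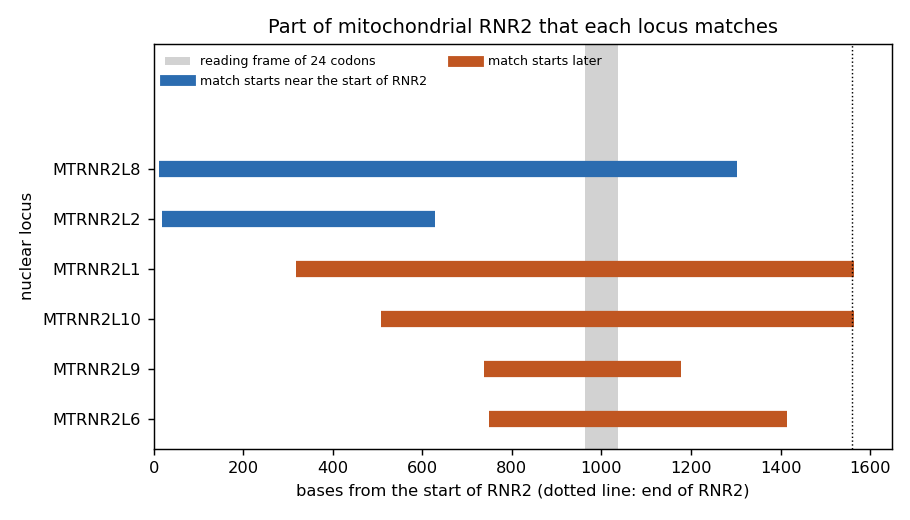
Part of RNR2 (horizontal axis, bases from its start) that the locus of each MTRNR2L member (vertical axis) matches best, with the reading frame of 24 codons as a grey band. Blue loci match from bases 13 and 18 of RNR2 and orange loci from bases 317 to 748.

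The entries whose profile lay nearest to that of MIR6723, by root mean square difference of centred log2(TPM + 1) over the 6 libraries, were ALDH2 (0.0629), LOC102724156 (0.0977), LOC101928820 (0.103), TMEM145 (0.106) and FAM109A (0.116). The median over all entries was 0.441. ALDH2 encodes mitochondrial aldehyde dehydrogenase from the nuclear genome. LOC102724156, LOC101928820 and TMEM145 had low mean levels of 2.02, 2.93 and 5.24 TPM, near the floor. Of the MTRNR2L members MTRNR2L8 came at place 14 with 0.144, MTRNR2L10 at place 65 and MTRNR2L6 at place 1449. For MTRNR2L2 the nearest profiles were CSNK2A2 (0.0424), C7orf73 (0.0615), CCNG1 (0.0616), SUZ12P1 (0.0635) and NSA2 (0.0683), with MTRNR2L8 at place 35 and MIR6723 at place 882.

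Of the other 7 MTRNR2L entries, MTRNR2L3 and MTRNR2L4 had values above the floor. MTRNR2L3 had 78.4, 65.3 and 125 TPM in A549-GFP and 95.2, 78.0 and 131 TPM in A549-TIPARP, below every value of MTRNR2L10, the lowest member. Its log2 difference between the lines was 0.20 (SE 0.28), in the range of the members. MTRNR2L4 stayed between 1.53 and 3.35 TPM. MTRNR2L5, MTRNR2L7, MTRNR2L11, MTRNR2L12 and MTRNR2L13 were listed at 0 on the log2 scale in all 6 libraries, the floor of the files, which stands for TPM of 1 or less. The order of level of the 6 members was also the order of their identity to mitochondrial DNA, from MTRNR2L2 to MTRNR2L10. Its last step was not firm, since MTRNR2L6 exceeded MTRNR2L10 in only 4 of 6 libraries. The members were chosen with their high levels known, so this order covers these 6 only. MTRNR2L12, which was not a member, was listed at 0, below all of them. RNR2 itself was listed at 0 too, and the cause was not tested. The locus of MTRNR2L12 (chr3:96617186-96618223, minus strand) has 95.1% identity and 15.5% of its windows in mitochondrial DNA, the highest share of the 13 loci. It shares 221 windows with MTRNR2L8. MTRNR2L3, with 82.7% identity, lay below MTRNR2L10 with 81.5%. No window of MTRNR2L3, MTRNR2L4, MTRNR2L5, MTRNR2L7, MTRNR2L11 or MTRNR2L13 occurred in mitochondrial DNA.

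**Figure D5:**
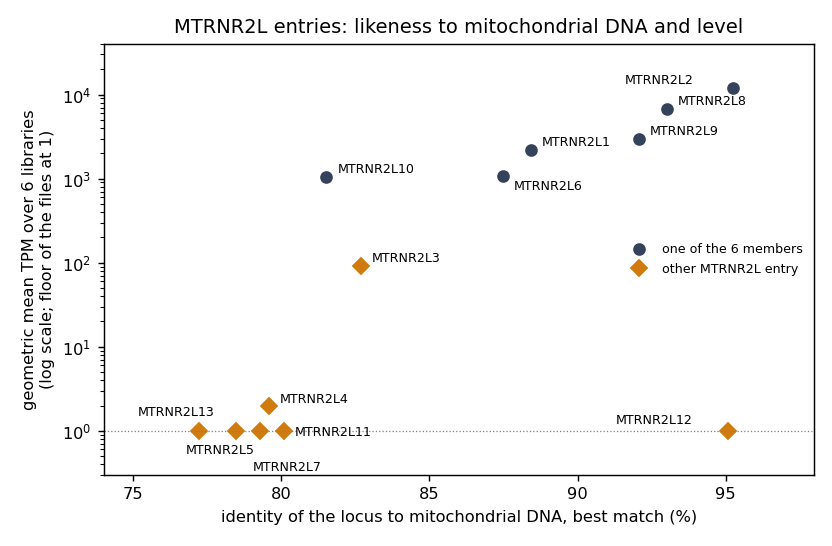
Geometric mean TPM over the 6 libraries (vertical axis, log scale, floor at 1) against the identity of each MTRNR2L locus to mitochondrial DNA (horizontal axis, percent) for 13 entries. The 6 members rise from 81.5% to 95.3% identity in order of level, and MTRNR2L12, with 95.1%, is among the 5 entries listed at the floor.

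The mitochondrial genome itself was listed at 0 on the log2 scale. This held in all 6 libraries for its 15 genes for respiratory chain subunits and ribosomal RNAs, RNR2 among them, and for its 22 transfer RNA genes. Depth is unknown, and genes that cells with mitochondria use are among them, so only the listing is given. The 392 pseudogene entries of mitochondrial genes were listed at 0 in all 6 libraries too. Of these loci 19 had over 90% identity to mitochondrial DNA and 15 had at least 1 window in it. A run of them on chromosome 1 was looked at after the values were seen. There MTND1P23 (chr1:629062-629440), a copy of part of the ND1 gene, had 99.2% identity and 63.0% of its windows in mitochondrial DNA, and MTCO1P12 (chr1:631074-632616), a copy of the COX1 gene, had 98.6% and 49.4%. These were the highest window shares of the run. Its other loci had 97.6% to 98.5% identity and 8.23% to 46.7% of their windows in mitochondrial DNA.

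MIR4485 lies inside MTRNR2L8, and its mature product hsa-miR-4485-3p occurs letter for letter in RNR2 at chrM:2563-2582. It is shown because it is a microRNA of RNR2-like sequence within a member, chosen after the values were seen. Capitals mark the seed, bases 2 to 8.
hsa-miR-4485-3p, chr11:10508277-10508296, minus strand: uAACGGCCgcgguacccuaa
MIR4485 was listed at 0 in all 6 libraries, while MTRNR2L8, which contains it, was at 5393 to 8411 TPM. Of 2545 mature microRNAs in RefSeq, 5 occurred letter for letter in mitochondrial DNA.

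Genes that transcribe mitochondrial DNA and handle its RNA were described beside the members. Of 37 listed, 36 passed the filter, and none had an adjusted or an unadjusted p under 0.05 (limma). Their mean was higher in A549-TIPARP for 9 and lower for 27, or 75.0%, beside 60.4% lower over all entries. The median log2 difference was -0.26 beside -0.06 over all entries, and -0.14 beside -0.036 without A549-TIPARP replicate 3. Without A549-GFP replicate 2 the mean was lower for 31 of the 36, beside 42.6% of all entries, and the median was -0.20 beside 0.042, so that the background itself rested on that library. After median-ratio rescaling 27 were lower, beside 51.7% of all entries. The range ran from -0.84 for PPARGC1A, a coactivator of mitochondrial biogenesis, to 0.45 for TOP1MT, the mitochondrial topoisomerase; these were named after their values were seen, as were the next 3. PPARGC1A had 8.84, 21.6 and 6.60 TPM in A549-GFP and 4.46, 4.69 and 8.45 TPM in A549-TIPARP, and without A549-GFP replicate 2 the differences were -0.38 for PPARGC1A and 0.24 for TOP1MT. The libraries of the lines did not overlap for TFB2M, a mitochondrial transcription factor, MTPAP, the mitochondrial poly(A) polymerase, and SUPV3L1, a mitochondrial RNA helicase. These 3 of 36 are 8.33%, no more than the 8.91% over all entries. TFB2M had 42.5, 39.2 and 34.9 TPM in A549-GFP and 30.4, 31.4 and 28.9 TPM in A549-TIPARP, while the members had higher means in A549-TIPARP.

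Of 9 receptors and binding partners of humanin, FPR2, FPR3 and CNTFR, which are receptor genes named after their values were seen, were listed at 0 in all 6 libraries. The other 6 passed the filter and none had an adjusted p under 0.05, beside 0.0152% of all entries. Over all entries 3.85% had an unadjusted p under 0.05. IGFBP3, an insulin-like growth factor binding protein that also binds humanin, was the only member of this list with an unadjusted p under 0.05. It had 694, 1795 and 773 TPM in A549-GFP and 503, 514 and 703 TPM in A549-TIPARP, a log2 difference of -0.80 (SE 0.34, unadjusted p = 0.0454, adjusted p = 0.994, limma). The lines overlapped, and the highest value was in A549-GFP replicate 2. Without that library the IGFBP3 difference was -0.37 (unadjusted p = 0.0900, adjusted p = 0.553, limma). Leaving out each of the other libraries in turn gave -0.72 to -1.06.

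The lines matched their labels, TIPARP being at 6.79, 11.4 and 3.68 TPM in A549-GFP and at 131, 90.5 and 123 TPM in A549-TIPARP. All 9 epithelial and A549 markers passed the filter. The 4 endothelial markers, the mesenchymal markers other than LUM, and the leukocyte markers PTPRC and CD3E were listed at 0 in all 6 libraries. LUM reached 1.09 TPM in 1 library, A549-GFP replicate 2. CD68 was highest in that library too, at 68.1 TPM against 25.0 to 36.0 TPM in the others. Between 40106 and 40891 entries of a library were at the floor.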

How the data were processed

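The authors sent RNA to a company for the 3 A549-GFP and 3 A549-TIPARP libraries, which were sequenced as paired ends. Reads were aligned with Strand NGS at default settings to an hg38 transcriptome. The authors deposited 1 table per library with log2 TPM per gene entry. Read counts and depth are unknown, so no counting error was computed. The annotation release and the handling of reads with several matches are not given in the sources used here. Groups came from the sample titles. Members and gene lists were chosen with earlier results of these data known.

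Values were turned back to TPM. Differences were tested with limma 3.58.1 (R 4.3.3) on log2(TPM + 1), with a trend of variance on level and p-values adjusted by the method of Benjamini-Hochberg over entries with TPM above 2 in at least 1 library, which is the authors' filter. The script was tested on simulated data. Loci were those of RefSeq, read from hg38 and aligned to mitochondrial DNA with blastn 2.17.0. Named were all MTRNR2L entries, the 10 of highest mean TPM, list members with an unadjusted p under 0.05, mitochondrial genes and their pseudogenes that passed the filter (none did), the 5 nearest profiles of MIR6723 and MTRNR2L2, and TIPARP. Genes outside this rule were singled out once their values had been seen. Shares weighted by entry length, protein comparisons and count tests were not run.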

Additional observations from a re-analysis of the deposited data

How the results depend on the processing

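None of the 7 entries was called under any of the 14 alternatives. In the 8 that kept all libraries, the log2 difference of MIR6723 was 0.10 to 0.16, with adjusted p of 0.984 to 0.999 (0.971 to 0.999 over the 7 entries). With the replicate number as a block (replicate block), MIR6723 kept 0.10 with an adjusted p of 0.999 (limma), and no call on a member changed. Same-numbered libraries had deviations correlated at 0.452, -0.516 and -0.379, so the numbers were not taken as pairs. Entries called over all genes went from 2 to 1 with the block. Leaving out each library in turn gave log2 differences of -0.090 to 0.27 for MIR6723, 0.070 to 0.45 for MTRNR2L1, 0.013 to 0.26 for MTRNR2L2, 0.19 to 0.57 for MTRNR2L6, 0.043 to 0.24 for MTRNR2L8, 0.13 to 0.52 for MTRNR2L9 and 0.0046 to 0.39 for MTRNR2L10, with adjusted p of 0.582 to 1 (limma). The sign turned for MIR6723 only, to -0.067 without A549-GFP replicate 2 and to -0.090 without A549-TIPARP replicate 3. The difference in its share was 0.578 percentage points, and -0.485 to 1.43 with a library left out. Without A549-GFP replicate 2 it was -0.196. The summed share differed by 0.880 points, and by -0.367 to 1.78. Without A549-GFP replicate 3, MTRNR2L6 and MTRNR2L9 had unadjusted p of 0.0121 and 0.0138, with adjusted p of 0.582, while 8.23% of all entries had an unadjusted p under 0.05 there. The cause was not tested. Entries called over all genes ranged from 1 to 3, being 1 without the filter on low values, without A549-GFP replicate 3, A549-TIPARP replicate 1 or A549-TIPARP replicate 2, and 3 without A549-GFP replicate 2 or A549-TIPARP replicate 3.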
